A study of Mus musculus with 12 samples.

Results

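The 40 genes described here are Myc, Mycn and Max, and 37 genes of ribosome biogenesis. They were listed by function, from general knowledge of Myc and the nucleolus. Earlier results of these data were known when the list was made. A gene was read through the probe sets annotated to it alone, and where there were several, the brightest of them by its average across the 12 arrays stood for the gene. In this way 39 of the 40 genes were measured by 77 probe sets, out of 18193 genes on the array. The exception was Mrto4, whose probe set is also annotated to the pseudogenes Mrto4-ps1 and Mrto4-ps2. All 39 genes had signals above background in both experiments, where background was the level under which 95% of 80 receptor probe sets lay, receptors of smell and pheromones taken as not expressed.

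Myc and N-Myc, the product of Mycn, are transcription factors that pair with Max to bind the E-box, a short palindrome in DNA. Myc is known in many cell types as an activator of ribosome biogenesis. In this process RNA polymerase I transcribes ribosomal DNA in the nucleolus, the precursor RNA is cleaved and modified, and the small and large subunits are assembled around it. In T cells Myc is induced by antigen and maintained by interleukin 2 (IL-2), and growth of the activated cell goes with large nucleoli and a high rate of ribosome production.

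Gene expression was measured in cytotoxic T lymphocytes (CTL) of C57BL/6 mice, with 3 arrays in each of 4 groups and 2 separate experiments. Splenic T cells were activated for 48 h with CD3 antibody at 0.5 µg/ml and IL-2 at 20 ng/ml, and then kept in IL-2 for 5 days. In the first experiment, Cre control CTL came from TamoxCre mice, which carry creEsr1, a Cre recombinase that tamoxifen switches on, at the ROSA locus, and for which the labels name no floxed allele. PDK1 null CTL came from PDK1fl/fl TamoxCre mice, whose Pdpk1 alleles are floxed. Cells of both groups received 0.6 µM 4-hydroxytamoxifen (4OHT) for the last 72 h, so the controls carried the recombinase and its ligand too. PDK1 is the kinase that activates Akt and other kinases of the AGC family. In the second experiment, wild type CTL were kept in IL-2 alone or were given 1 µM AktI-1/2 (AktI), an allosteric inhibitor of Akt, for the last 48 h, and each mouse supplied 1 culture of each kind. The experiments thus differ in genotype, treatment and time, and their signals appear to have been normalized separately. Effects were therefore compared between them, and levels were not.

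The E-box searched for was CACGTG, which reads the same on both strands. RefSeq windows of the GRCm38.p6 build were at hand for 33 of the 40 genes, and not for Myc, Tcof1, Npm1, Fbl, Rrp12, Bop1 and Rrs1. Each ran from 250 bases before an annotated start of the gene to 50 after it. Of these 33 genes, 7 (21.2%) had the motif in a window, against 8.09% of the 27025 genes with a window. The stretches around the 8 motifs are shown because they are the places where a Myc and Max pair could be looked for in genes whose signals were compared. Each is written 5′ to 3′ on the strand of the gene, with the E-box in capitals. Distances are from the start used for the window. For Max and Wdr43 that start lies inside the gene, whose first base is at 76962323 and 71616178.
Max, chr12:76962234-76962263, minus strand, motif 3 bases before the start: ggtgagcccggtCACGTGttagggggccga
Nop2, chr6:125131811-125131840, plus strand, motif 60 bases before the start: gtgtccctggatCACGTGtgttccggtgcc
Pes1, chr11:3963965-3963994, plus strand, motif 2 bases after the start: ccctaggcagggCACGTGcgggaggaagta
Rrn3, chr16:13780472-13780501, plus strand, motif 215 bases before the start: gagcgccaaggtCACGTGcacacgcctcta
Rrn3, chr16:13780639-13780668, plus strand, motif 48 bases before the start: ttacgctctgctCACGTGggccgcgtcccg
Tsr1, chr11:74898092-74898121, plus strand, motif 24 bases after the start: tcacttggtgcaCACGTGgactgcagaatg
Utp20, chr10:88826765-88826789, minus strand, motif 37 bases after the start: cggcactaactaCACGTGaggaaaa
Wdr43, chr17:71616220-71616249, plus strand, motif 17 bases after the start: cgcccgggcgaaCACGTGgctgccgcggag

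The 250 bases before the start of Mycn are shown next, since Mycn is the gene whose signal changed in both comparisons. No CACGTG lies in this window.
Mycn, chr12:12941837-12942086, minus strand: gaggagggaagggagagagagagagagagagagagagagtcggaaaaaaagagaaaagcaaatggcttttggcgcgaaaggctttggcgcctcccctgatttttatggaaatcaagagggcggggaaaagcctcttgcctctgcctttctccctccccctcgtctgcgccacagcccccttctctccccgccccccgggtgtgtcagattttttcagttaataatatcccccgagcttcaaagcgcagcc

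Signals below are log2 values, and an effect is the difference of 2 group means on that scale. A change passed when limma gave an adjusted p under 0.05 over all probe sets and the means differed by at least 1.5-fold. Array medians lay between 4.61 and 4.63 in the first experiment and between 5.10 and 5.14 in the second, and replicate arrays correlated at 0.9958 to 0.9978. The 2 probe sets of Pdpk1, the deleted gene, did not mark the deletion: their effects in PDK1 null CTL were 0.047 and -0.038, with adjusted p of 0.822 and 0.853 by limma. Whether these probe sets lie in the floxed part of the gene is not given in the sources used here, so they do not check the labels. All 10 CTL markers were above background in every group. Of the markers of other cells, Ncr1 of NK cells and Hba-a1 and Alas2 of erythroid cells were at or below background in every group, as were Ms4a1 of B cells, Adgre1 of macrophages and Fcer1a of mast cells. Other markers of the same lists were above background: 3 of 5 B cell markers in the first experiment and 4 of 5 in the second, 3 to 5 of 6 myeloid markers by group, and both CD4 T cell markers in every group. Of the 3 mast cell and basophil markers, 2 were above background in the first experiment, 1 with IL-2 alone and 0 with AktI. The sorts of cell in a culture were measured together, so fewer cells that express a gene and less RNA of it per cell cannot be told apart.

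Mycn had a lower signal in PDK1 null CTL and with AktI, and it was the 1 measured gene of the 39 that passed in either comparison. Mycn (chr12:12936093-12941836) encodes N-Myc, best known from the embryo and from neuroblastoma. Its signal was 9.91, 10.11 and 10.13 in Cre control CTL and 9.40, 9.49 and 9.42 in PDK1 null CTL. With IL-2 alone it was 10.32, 10.13 and 10.33, and with AktI it was 8.82, 8.59 and 9.02. In neither experiment did the groups overlap, and the gap between them was wider in the second.

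The Mycn mean fell from 10.05 ± 0.12 to 9.44 ± 0.046 (SD, n = 3) in PDK1 null CTL, an effect of -0.61 with a standard error of 0.08. This is a 1.53-fold difference with an adjusted p of 0.0113 by limma, just past the fold minimum. The call depended on single arrays: without Cre control replicate 2, Cre control replicate 3 or PDK1 null replicate 3 the effects were -0.59, -0.57 and -0.60, and the adjusted p was 0.0579, 0.057 and 0.0533. With AktI the mean fell from 10.26 ± 0.11 to 8.81 ± 0.22 (SD, n = 3), an effect of -1.45 with a standard error of 0.113 and a 2.73-fold difference, with an adjusted p of 0.000297 by limma. This call held without any single array, at adjusted p of 0.000498 to 0.00349.

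The Mycn effect was larger with AktI than in PDK1 null CTL. The difference of the effects was 0.84 with a standard error of 0.146 and an adjusted p of 0.0248 by limma, and Mycn was the 1 gene of the 39 whose difference passed. Over all 18193 genes, 0.522% passed this test. The adjusted p of the Mycn difference ranged from 0.00954 to 0.0781 when each array was left out in turn, and 6 of the 12 omissions took it above 0.05.

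Mycn was read by 3 probe sets, and they did not move alike. The second had an effect of -0.47 with an adjusted p of 0.0533 in PDK1 null CTL and of -0.96 with an adjusted p of 0.00127 with AktI, by limma. The third had effects of 0.0069 and 0.0090. The difference of effects was 0.49 for the second, with an adjusted p of 0.21 by limma, and -0.0021 for the third. The difference thus passed for the brightest probe set alone. Averaged over the 3, Mycn was 0.36 lower in PDK1 null CTL with an adjusted p of 0.0302 by limma, which is under the fold minimum.

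**Figure D1:**
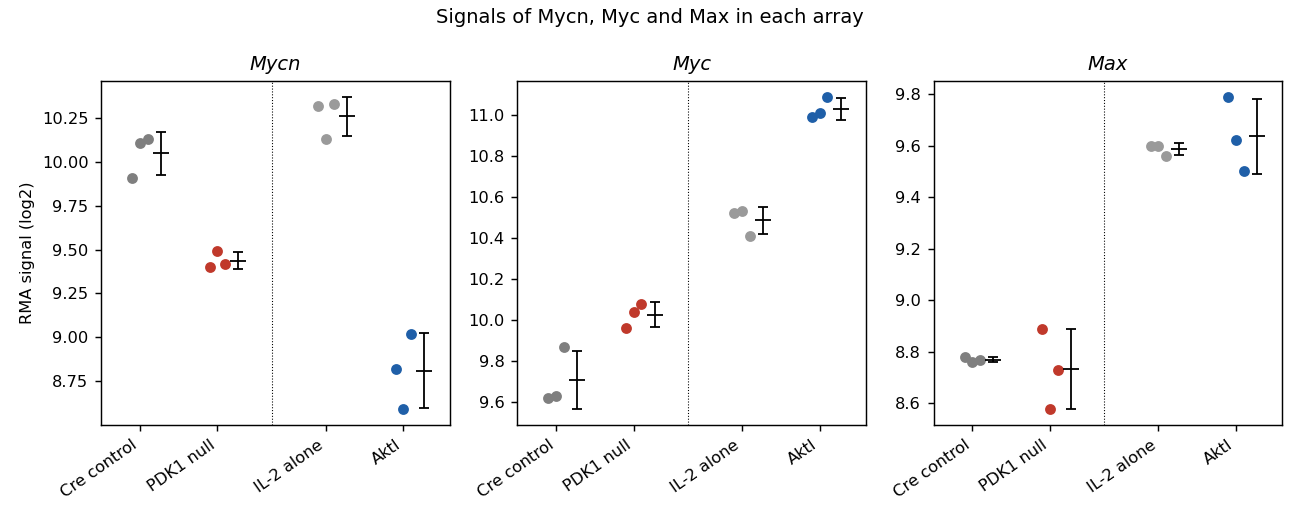
RMA signal (log2, an axis of its own for each gene) of Mycn, Myc and Max in each array, by group; points are arrays, black marks are the mean and SD of 3 arrays, and the dotted line parts the experiments. Mycn lay lower and Myc higher in PDK1 null CTL than in Cre control CTL and with AktI than with IL-2 alone, with no overlap, and the Max groups overlapped.

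Myc ran the other way. Myc (chr15:61985341-61990361), the family member that T cells induce on activation, was read by 1 probe set. Its signal was 9.62, 9.63 and 9.87 in Cre control CTL and 9.96, 10.04 and 10.08 in PDK1 null CTL. It was 10.52, 10.53 and 10.41 with IL-2 alone and 10.99, 11.01 and 11.09 with AktI. Every array of the null or inhibited cells was above every array of its controls. The effect in PDK1 null CTL was 0.32 with a standard error of 0.0863 and an adjusted p of 0.118 by limma, so it did not pass. The adjusted p was 0.0374 with limma's trend and robust setting and 0.0319 in 1 model over all arrays, still under the fold minimum. It was 0.0662 with dim probe sets left out, 0.125 with a replicate block and 0.0945 to 0.321 when each array was left out in turn. The effect with AktI was 0.54 with a standard error of 0.068 and an adjusted p of 0.00304 by limma, or 0.014 with the mouse as a block. This is a 1.46-fold difference, which is past the p threshold and short of the fold minimum. The Myc effects differed by -0.22 with an adjusted p of 0.526 by limma, a difference that did not pass.

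Max, the partner of both factors, had signals of 8.78, 8.76 and 8.77 in Cre control CTL and of 8.89, 8.58 and 8.73 in PDK1 null CTL. With IL-2 alone they were 9.60, 9.60 and 9.56, and with AktI they were 9.79, 9.62 and 9.50. The groups overlapped in both experiments. The effects were -0.032 and 0.045, with standard errors of 0.0875 and 0.0834 and adjusted p of 0.912 and 0.849 by limma, and each turned its sign when 1 array was left out.

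Among all 39 genes, then, 1 passed in PDK1 null CTL and it was lower. Over the 18193 genes, 0.357% passed lower and 1.01% higher in this comparison. With no fold minimum the count stayed at 1 gene, where 0.742% of all genes were called lower. With AktI 1 gene passed lower, where 1.03% of all genes did so and 1.51% passed higher. With no fold minimum the calls were Mycn lower and Myc higher, where 2.94% of all genes were called lower and 3.66% higher.

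The 36 measured ribosome biogenesis genes had slightly lower signals in PDK1 null CTL than in Cre control CTL. Their mean was lower for 34 genes and higher for Tcof1 and Fbl, the median effect was -0.195 and the range ran from -0.39 to 0.0073. Of the 11449 genes above background in both experiments, 53.7% had a lower mean, and their median effect was -0.013. None of the 36 genes passed. By an unadjusted p under 0.05, 23 of the 36 were lower and 0 higher, where 12.1% of the genes above background were lower. The groups did not overlap for 29 genes, all lower, where 18.1% of the genes above background were apart in this direction. With no fold minimum, 3 other fits called genes lower at an adjusted p under 0.05 by limma. The trend and robust setting called 5 of the 36, namely Noc2l, Nop16, Nop56, Polr1b and Utp20, where 2.09% of all genes were called. With dim probe sets left out 4 were called, where 2.30% of the 11970 genes kept were. In 1 model over all arrays 4 were called, where 2.47% of all genes were. All of these effects were under 1.5-fold.

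The same shift was seen in each PDK1 null array. Set against the Cre control means, the 36 genes had a median of -0.184, -0.131 and -0.252 in PDK1 null replicates 1, 2 and 3, with 34, 32 and 35 genes below 0. The Cre control arrays themselves had medians of -0.038, -0.011 and 0.044, with 32, 23 and 8 genes below 0. The count alone thus did not set the groups apart, since Cre control replicate 1 equalled PDK1 null replicate 2. The genes above background had medians between -0.018 and -0.0080 in the PDK1 null arrays. Over all 39 genes the median effect was -0.19, and it lay between -0.22 and -0.16 when each array was left out in turn.

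With AktI the 36 genes showed no such shift. Their mean was lower for 17 and higher for 19, the median effect was 0.0091 and the range ran from -0.13 to 0.21. Of the genes above background, 53.1% had a lower mean with AktI. None of the 36 passed. With limma's trend and robust setting and no fold minimum, 2 of them, Dkc1 and Fbl, were called higher, where 5.73% of all genes were. By an unadjusted p under 0.05, 4 genes were higher and 0 lower, where 13.6% of the genes above background were higher and 13.6% lower. The groups were apart for 5 genes, all higher, where 17.8% of the genes above background were apart higher and 19.2% lower. The AktI arrays had medians of -0.026, 0.013 and 0.056 against the means with IL-2 alone, and the IL-2 alone arrays had -0.049, 0.078 and -0.018.

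The effects in PDK1 null CTL were also set against those with AktI. The PDK1 null effect was below the AktI effect for each of the 36 genes but Tcof1, and the median difference was -0.189. By an unadjusted p under 0.05, 15 of the 36 differed, all in this direction, where 14.0% of the genes above background differed in either. No difference of the 36 passed after adjustment. The experiments share no arrays, and they differ in genotype, agent and time of exposure, so a difference of effects between them cannot be told apart from those conditions.

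**Figure D2:**
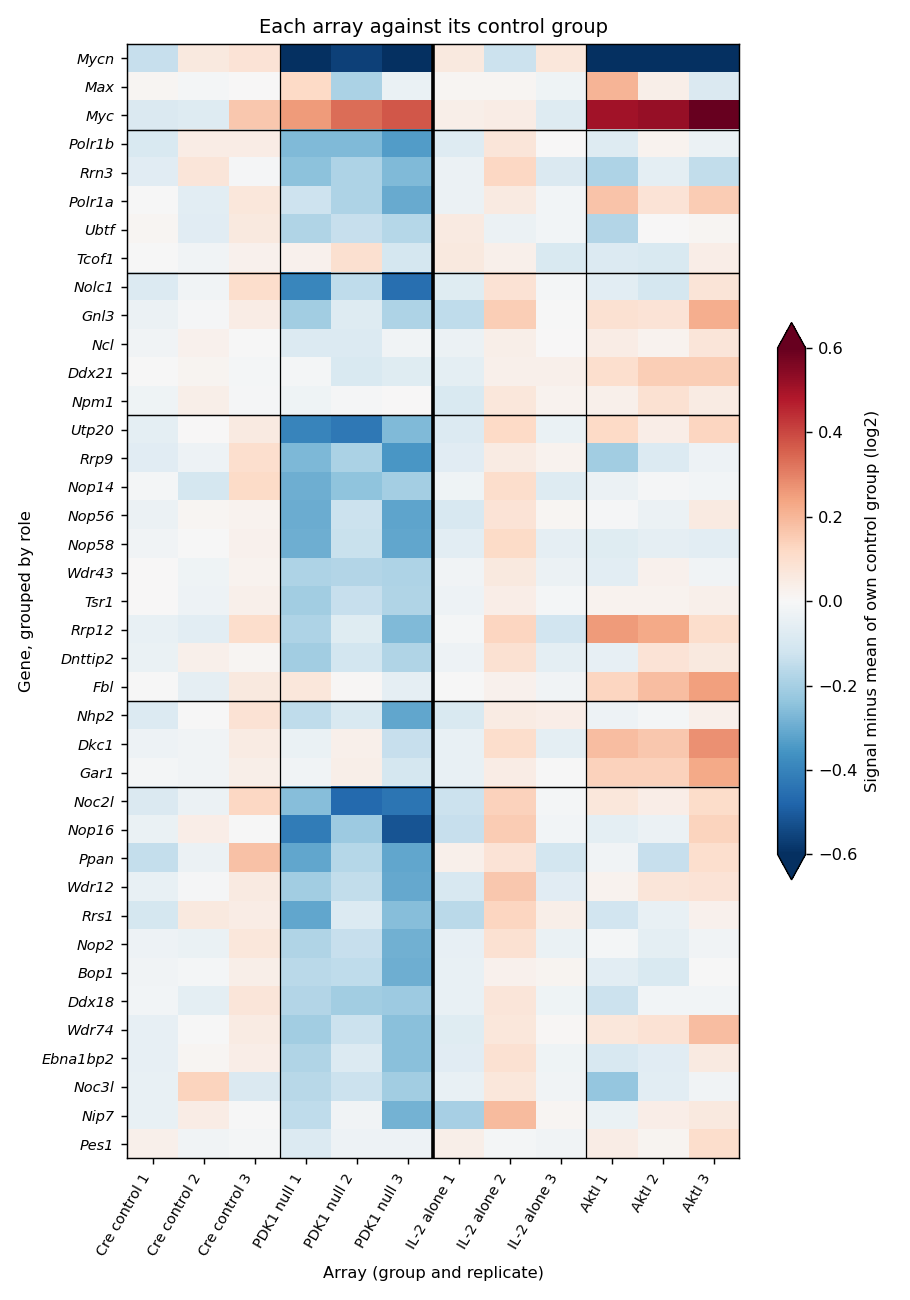
Signal of each of the 39 genes in each array minus the mean of its own control group (log2, colour scale from -0.6 to 0.6), with genes in rows by role and arrays in columns; the thick line parts the experiments. The PDK1 null columns are mostly below 0, with 34, 32 and 35 of the 36 ribosome biogenesis genes lower. In the Cre control columns 32, 23 and 8 are lower, and the AktI columns hold both signs.

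The genes for transcription of ribosomal DNA came first in this pathway. They were Polr1a and Polr1b, the large subunits of RNA polymerase I, Ubtf, which binds the ribosomal DNA promoter, Rrn3, which recruits the polymerase to it, and Tcof1, a nucleolar factor of this transcription. The PDK1 null groups were lower and apart for 4 of the 5, beside the 18.1% of genes above background, with effects from -0.29 to 0.0073. Polr1b had signals of 7.99, 8.13 and 8.13 in Cre control CTL and 7.82, 7.82 and 7.75 in PDK1 null CTL, an effect of -0.29 with an adjusted p of 0.093 by limma. Its AktI effect was -0.032.

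Rrn3, which has 2 E-boxes in its window, showed a similar difference in PDK1 null CTL and the lowest AktI effect of the 36 genes. Its signal was 7.81, 7.95 and 7.87 in Cre control CTL and 7.63, 7.69 and 7.61 in PDK1 null CTL, which gave an effect of -0.23 with an adjusted p of 0.154 by limma. It was 8.71, 8.87 and 8.66 with IL-2 alone and 8.56, 8.69 and 8.60 with AktI, where the groups overlapped and the effect was -0.13 with an adjusted p of 0.459 by limma. Tcof1 had signals of 7.40, 7.38 and 7.43 in Cre control CTL and 7.43, 7.50 and 7.30 in PDK1 null CTL. Its groups overlapped, and its effect of 0.0073 turned below 0 in 4 of 15 alternatives, several of which, such as SAM, cannot change an effect. With IL-2 alone it was 8.96, 8.93 and 8.81, and with AktI 8.82, 8.81 and 8.94. Polr1a was at -0.20 in PDK1 null CTL and 0.14 with AktI by its brightest probe set, with groups apart in both. Its probe sets differed in sign with AktI: the 2 others above background were at -0.084 and -0.21 there, and at -0.38 and -0.20 in PDK1 null CTL.

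The scaffolds, chaperones and helicases of the nucleolus had PDK1 null effects between -0.33 and -0.0089. Nolc1, a phosphoprotein that serves as a chaperone of small nucleolar particles, had signals of 9.29, 9.35 and 9.48 in Cre control CTL and 8.98, 9.22 and 8.92 in PDK1 null CTL, an effect of -0.33 with an adjusted p of 0.144 by limma. Gnl3 (nucleostemin) was at -0.16. Nucleolin (Ncl) was at -0.065, the helicase Ddx21 at -0.061 and nucleophosmin (Npm1) at -0.0089, and none of these passed. A second probe set of Ddx21 with a similar signal was at -0.17 in PDK1 null CTL, with groups apart, and at -0.038 with AktI, where the first was at 0.13. With AktI the 5 genes lay between -0.028 and 0.13 by their brightest probe sets. All probe sets of Ncl ran from -0.048 to 0.34 with AktI, and those of Nolc1 from -0.028 to 0.27. The highest of each had groups apart and did not pass.

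The small subunit factors included Utp20, a large component of the small subunit processome, which had the lowest p of the 36 genes in PDK1 null CTL. Its signal was 8.73, 8.79 and 8.84 in Cre control CTL and 8.39, 8.36 and 8.52 in PDK1 null CTL. The effect was -0.37 with a standard error of 0.0736, and its adjusted p of 0.0509 by limma was just short of the threshold. It was 0.0138 with limma's trend and robust setting, 0.0276 with dim probe sets left out and 0.0126 in 1 model over all arrays, each under the fold minimum. It was 0.078 with a replicate block and 0.0757 to 0.172 when each array was left out in turn. With IL-2 alone the Utp20 signal was 8.81, 9.01 and 8.85, and with AktI 9.01, 8.93 and 9.02. These groups overlapped, and the effect was 0.094. The difference of the effects was -0.46 with an adjusted p of 0.0884 by limma.

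Fbl, the methyltransferase fibrillarin, differed from its partners Nop56 and Nop58 of the box C/D particles. Its signal was 11.26, 11.21 and 11.32 in Cre control CTL and 11.33, 11.27 and 11.21 in PDK1 null CTL. The effect of 0.0064 turned below 0 in 3 of 15 alternatives, several of which cannot change an effect. Nop56 was at -0.25 and Nop58 at -0.24, and for both every PDK1 null array was below every control. With AktI Fbl was at 12.41, 12.47 and 12.53 against 12.28, 12.31 and 12.26, an effect of 0.18 with no overlap and an adjusted p of 0.178 by limma. Rrp9, a protein of the U3 particle, had signals of 8.48, 8.52 and 8.65 in Cre control CTL and 8.28, 8.36 and 8.20 in PDK1 null CTL, an effect of -0.27. With IL-2 alone it was 9.43, 9.55 and 9.52, and with AktI 9.29, 9.42 and 9.47, an effect of -0.11 with overlapping groups and an adjusted p of 0.531 by limma.

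Rrp12 is a factor for maturation and export of the subunits. It was 6.68, 6.66 and 6.83 in Cre control CTL and 6.54, 6.65 and 6.46 in PDK1 null CTL, an effect of -0.17. With IL-2 alone it was 7.72, 7.86 and 7.62, and with AktI 7.99, 7.96 and 7.84, an effect of 0.19 with an adjusted p of 0.261 by limma. The AktI groups overlapped, and the PDK1 null groups were just apart. The difference of its effects was -0.37 with an adjusted p of 0.253 by limma, so neither effect nor their difference passed. The remaining small subunit factors, Nop14, Wdr43, Tsr1 and Dnttip2, had PDK1 null effects between -0.25 and -0.17 and AktI effects between -0.023 and 0.028.

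The pseudouridylation particle is built on dyskerin (Dkc1), which modifies uridines in ribosomal RNA under the guidance of box H/ACA RNAs. Dkc1 had signals of 10.25, 10.26 and 10.33 in Cre control CTL and 10.24, 10.31 and 10.14 in PDK1 null CTL, with overlapping groups and an effect of -0.050. With IL-2 alone it was 11.22, 11.37 and 11.21, and with AktI 11.45, 11.43 and 11.54. The AktI arrays were all above the controls, and the effect of 0.21 had an adjusted p of 0.168 by limma. Gar1 was at -0.028 and 0.16 in the same order, and Nhp2 at -0.19 and -0.0028.

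All 13 measured factors of the large subunit had lower means in PDK1 null CTL, and for 11 of them the groups were apart, beside 53.7% and 18.1% of the genes above background. The lowest were Noc2l, a nucleolar protein that escorts the precursor of the large subunit, and Nop16, a factor of the same particle. Noc2l had signals of 8.40, 8.45 and 8.61 in Cre control CTL and 8.23, 8.02 and 8.05 in PDK1 null CTL, an effect of -0.39 with a standard error of 0.0885 and an adjusted p of 0.0758 by limma. Nop16 had signals of 9.13, 9.21 and 9.17 in Cre control CTL and 8.75, 8.95 and 8.65 in PDK1 null CTL, an effect of -0.39 with a standard error of 0.0889 and an adjusted p of 0.0774 by limma. Neither passed, although the groups were apart for both. In the 3 other fits the adjusted p by limma was 0.0228 to 0.0445 for Noc2l and 0.0243 to 0.0452 for Nop16, with the fold minimum unmet. It was 0.133 and 0.0925 with a replicate block. When each array was left out in turn it was 0.0922 to 0.22 for Noc2l and 0.0274 to 0.239 for Nop16. Averaged over its probe sets, Nop16 was at -0.20 with an adjusted p of 0.213 by limma. With AktI Noc2l stood at 9.50, 9.45 and 9.57 against 9.33, 9.53 and 9.60, an effect of 0.073. Nop16 stood at 9.83, 9.85 and 10.02 against 9.75, 10.04 and 9.87, an effect of 0.017.

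The other large subunit factors followed at a distance. Pes1, Bop1 and Wdr12 form the PeBoW complex, and their PDK1 null effects were -0.047, -0.21 and -0.22. Noc3l, a partner of Noc2l, had signals of 7.83, 8.01 and 7.79 in Cre control CTL and 7.71, 7.75 and 7.67 in PDK1 null CTL, an effect of -0.17. It had the lowest AktI effect of the large subunit factors, -0.10, at 8.48, 8.65 and 8.69 with AktI against 8.67, 8.78 and 8.69 with IL-2 alone, where the groups overlapped and the adjusted p was 0.567 by limma. Ppan, Rrs1, Nop2, Ddx18, Wdr74, Ebna1bp2 and Nip7 lay between -0.27 and -0.15 in PDK1 null CTL and between -0.051 and 0.11 with AktI. Second probe sets were not always alike: Nop16 had another at -0.0049 in PDK1 null CTL, and with AktI Noc3l had another at 0.14 and Nip7 at 0.26. The 3 of Dkc1 ran from -0.12 to 0.13 in PDK1 null CTL and from 0.21 to 0.37 with AktI.

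**Figure D3:**
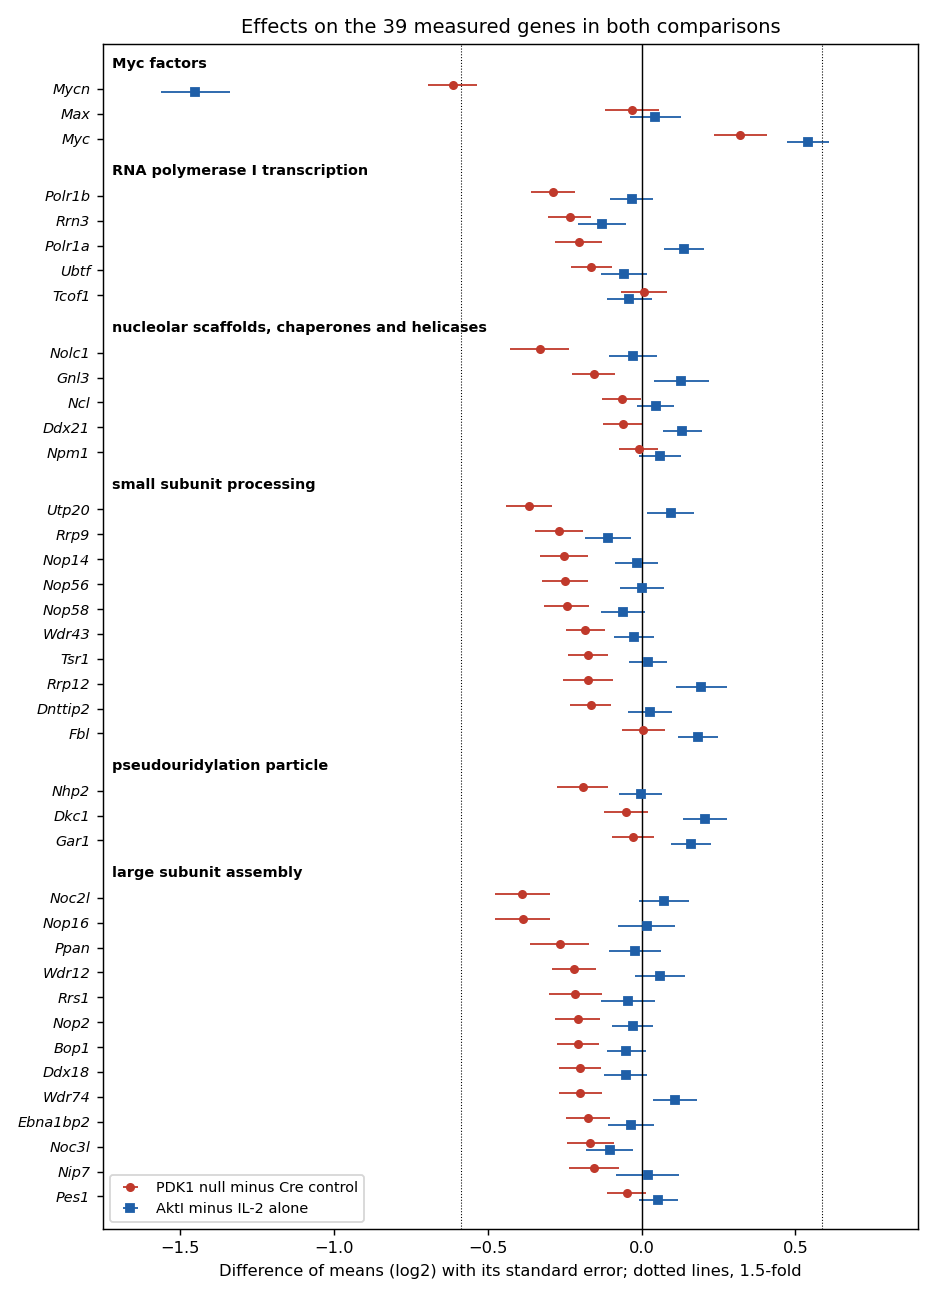
Difference of group means (log2) and its standard error, by role, for each of the 39 genes measured, for PDK1 null minus Cre control (red circles) and AktI minus IL-2 alone (blue squares); dotted lines mark 1.5-fold. Mycn lies past the lower line in both comparisons, and the 36 ribosome biogenesis genes lie within the lines, with medians of -0.195 and 0.0091.

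The genes with an E-box in the window did not stand out by their effects. In PDK1 null CTL the median effect was -0.195 over the 6 ribosome biogenesis genes with the motif and -0.199 over the 24 genes with a window and no motif, and every gene of both sets was lower. With AktI the medians were -0.00090 and 0.0091. Utp20 had the lowest effect of the genes with the motif in PDK1 null CTL, and Pes1 the one nearest to 0.

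The rest of the pathway was read from lists of 4 kinds of ribosome biogenesis gene that hold none of the 40. Of these 121 measured genes, 103 had a lower mean in PDK1 null CTL, with a median effect of -0.13, and 48 were lower by an unadjusted p under 0.05. The shares of the genes above background were 53.7% and 12.1%. None passed. Riok2, a kinase of late small subunit maturation, was the 1 gene past the p threshold, with an effect of -0.53 and an adjusted p of 0.0484 by limma, and it fell short of the fold minimum. By kind, the median effect was -0.14 over 46 small subunit factors, -0.15 over 42 large subunit factors, -0.11 over 22 guide particle and exosome genes and -0.014 over 11 RNA polymerase I genes. The largest effects of the other kinds were -0.31 for Ftsj3, a factor of the large subunit, -0.43 for Znhit3, which assembles box C/D particles, and -0.13 for Polr1e, a subunit of RNA polymerase I. With AktI the 121 genes had a median of -0.0060, none passed, and Taf1d at 0.35, Utp4 at -0.26, Nop53 at 0.29 and Znhit3 at -0.36 were farthest from 0 in their kinds.

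Genes of RNA polymerase III, which makes 5S ribosomal RNA and transfer RNA, had a median effect of -0.090 over 19 genes in PDK1 null CTL and 0.0074 with AktI. None passed, and the largest effects were -0.30 for Polr3d, a subunit, and 0.24 for Maf1, the repressor of this polymerase. The measured genes for structural proteins of the ribosome did not share the shift. Of 79 listed ribosomal protein genes, 44 were measured. A higher mean was seen for 40 of the 44 in PDK1 null CTL and 36 with AktI, with medians of 0.034 and 0.039. Of the genes above background, 53.7% and 53.1% had a lower mean. None passed, and Rps25 had the largest effects, -0.44 and -0.35.

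**Figure D4:**
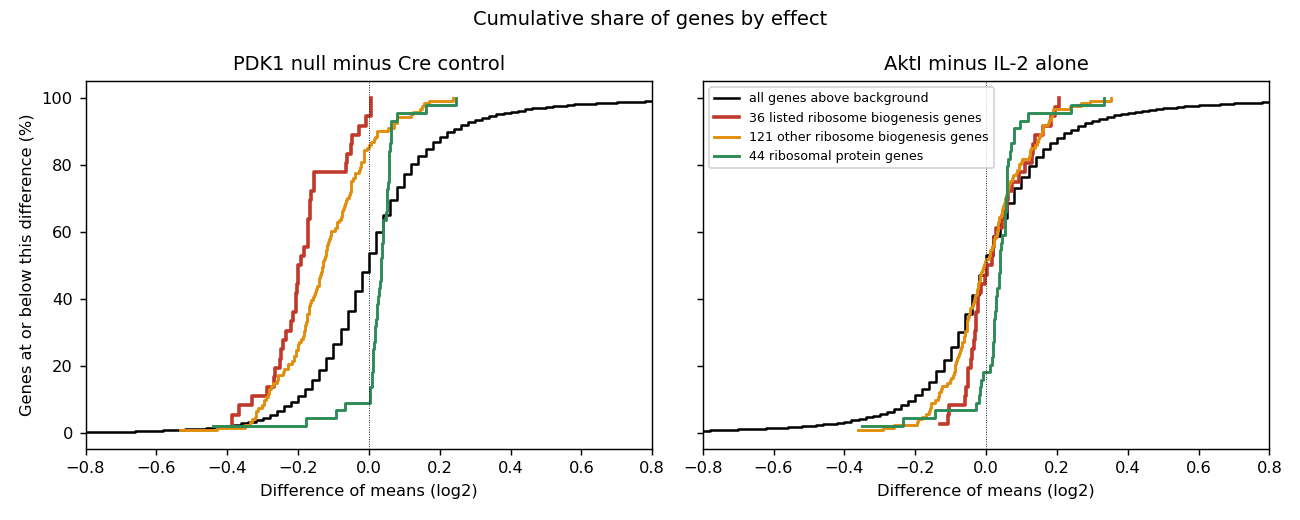
Cumulative share of genes (%) by difference of means (log2) in each comparison, for the 36 ribosome biogenesis genes, 121 others of that process, 44 ribosomal protein genes and the 11449 genes above background (in steps of 0.02). In PDK1 null CTL the biogenesis curves lie left of all genes, with medians of -0.195 and -0.13, and with AktI the medians are 0.0091 and -0.0060.

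Targets of Myc outside the nucleolus, enzymes of nucleotide and polyamine synthesis among them, had a median effect of -0.12 over 28 genes in PDK1 null CTL, with 22 lower, and of 0.00070 with AktI. None passed. Ctps, which makes CTP, was lowest in PDK1 null CTL at -0.39 with an adjusted p of 0.0569 by limma, and Paics, a purine enzyme, had the largest AktI effect, 0.23.

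The Max network list holds other factors linked to Myc, Max and Mlx, with Mlx itself, and several of them repress E-box genes. Of its 10 genes, 9 were above background in each experiment, and Mycl was not. Mxd1, a repressor that pairs with Max, fell with AktI. Its signal was 7.55, 7.21 and 7.32 with IL-2 alone and 6.61, 6.64 and 6.48 with AktI, an effect of -0.79 with an adjusted p of 0.00262 by limma. In PDK1 null CTL it was 6.69, 6.65 and 6.53 against 6.85, 6.75 and 6.59, where the groups overlapped and the effect was -0.11. The difference of its effects was 0.68 with an adjusted p of 0.0478 by limma. None of the 10 genes of the network passed in PDK1 null CTL, where Mlx had the largest effect, -0.27. The genes of the network did not all fall with AktI, where 6 of the 10 had a higher mean and 4 a lower. Mxi1 was at 0.37 with an adjusted p of 0.0338 and Mlx at -0.32 with an adjusted p of 0.0226 by limma. Both were under the fold minimum.

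Markers of other cells and states were read beside these results. The 15 measured markers of dividing cells, such as Birc5 at 0.41, had a median effect of 0.10 in PDK1 null CTL, with medians of 0.105, 0.308 and -0.074 in PDK1 null replicates 1, 2 and 3. The replicate with the highest median of these markers was the one with the smallest shift of the 36 biogenesis genes, and their part in that shift was not tested. With AktI the dividing cell markers had a median of 0.026, and Aurka had the largest effect, -0.25. Among the 10 CTL markers, Cd2 passed higher in PDK1 null CTL at 0.67 and Prf1 (perforin) passed lower with AktI at -2.20. These markers went both ways. In PDK1 null CTL 4 had a higher mean and 6 a lower, with effects from -0.67 to 0.67. With AktI 6 had a higher mean and 4 a lower, with effects from -2.20 to 0.50. Among the 6 myeloid markers, Fcgr3 passed higher in PDK1 null CTL at 0.91 and Cd68 lower with AktI at -1.30. Of the mast cell and basophil markers, Mcpt8 passed lower with AktI at -1.09. The list means over arrays for the myeloid markers were 5.38 to 5.42 in Cre control CTL, 5.58 to 5.71 in PDK1 null CTL, 5.43 to 5.64 with IL-2 alone and 5.24 to 5.31 with AktI. No B cell, CD4 T cell, NK cell or erythroid marker passed in either comparison, and the largest effects there were those of Ighm, 0.36 and -0.57. Whether the cells behind these markers had a part in the effects of Mycn or of the ribosome biogenesis genes was not tested.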

How the data were processed

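Affymetrix mouse arrays of 12 CTL samples were used, 3 per group. The deposited values are log2 signals, which the authors obtained by robust multichip averaging (RMA) in Affymetrix Expression Console 1.1; they were used unchanged. Of 45101 probe sets, 64 controls were left out. Genes were named from the platform annotation: 34945 probe sets name 1 gene, 932 several and 9160 none. Background was 4.45 in the PDK1 experiment and 4.99 in the Akt experiment.

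Each comparison was fitted on its own 6 arrays in R 4.3.3 with limma 3.58.1 (lmFit and eBayes), with Benjamini-Hochberg adjustment over 45037 probe sets. The main AktI fit was unpaired, and the mouse entered it as a block only as an alternative. A difference of effects came from 1 model of 4 group means. RMA sets arrays to a common distribution, so a change in total RNA per cell would not be seen. The number of arrays limits the precision, and a permutation test of 3 against 3 cannot give a p below 0.1.

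Members and the 16 other lists were chosen with earlier results of these data known. Genes named are Myc, Mycn, Max, those that passed, the 4 largest rises and falls per comparison, up to 3 examples of a role, and the leading genes of each other list. In the Akt experiment a replicate number marks 1 mouse, and deviations of same-numbered arrays correlated at 0.034 to 0.17. In the PDK1 experiment the number pairs nothing (-0.011 to 0.050). Fits were tested on simulated data. The alternatives were another limma setting (trend and robust), SAM of the methods, other scalings, a filter on dim probe sets, no fold minimum, means over probe sets, a replicate block, 1 model over all arrays, and each array left out. With no fold minimum, Noc2l, Nop16, Nop56, Polr1b, Utp20 and Myc cross the adjusted p threshold in PDK1 null CTL under some of these. Dkc1 and Fbl do so with AktI under the trend and robust setting.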

Additional observations from a re-analysis of the deposited data

Results flagged for a closer look

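The effect on Mycn differed between the experiments. It was -0.61 in PDK1 null CTL and -1.45 with AktI, and the difference of 0.84 had an adjusted p of 0.0248 by limma in a test of the difference itself. All 3 arrays of each treated group were below their controls. The difference stayed between 0.72 and 0.94 when each array was left out in turn, and its adjusted p between 0.00954 and 0.0781. These values are those of the brightest Mycn probe set. The second had a difference of 0.49 with an adjusted p of 0.21 by limma, and the third had -0.0021, so neither passed. Groups of 3 arrays were too small to look for single arrays that stand apart.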

How the results depend on the processing

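The medians of the 39 genes moved by less than the spread between arrays under each of their 10 alternatives. The count of genes that passed in PDK1 null CTL was 1, and it was 0 with a gene read as the average of its probe sets and 0 to 1 when an array was left out. With AktI it was 1, and 2 with no fold minimum, where Myc was added. Adjusted p alone under 3 other fits was added after the data were seen. With the trend and robust setting, dim probe sets left out and 1 model over all arrays it called 7, 5 and 6 genes in PDK1 null CTL and 4, 2 and 2 with AktI. Of those in PDK1 null CTL, 6, 5 and 5 were lower, where 2.09%, 2.30% and 2.47% of the genes in each fit were called lower. Of those with AktI, 3, 1 and 1 were higher, where the trend and robust setting called 5.73% of all genes higher. The main fit with no fold minimum called 2.94% of all genes lower and 3.66% higher with AktI. Shares for the other calls under these fits were not taken. The count of genes whose effects differed was 1, and it was 0 with that average and 0 to 1 when an array was left out. With the replicate block the adjusted p of Mycn was 0.0223 in PDK1 null CTL and 0.000634 with AktI, that of its difference was 0.0173, and no call changed. SAM called Mycn in both comparisons and no other gene of the 39. Signs turned for Fbl, Tcof1, Max and Noc3l among the genes named with values in every array. Fbl in PDK1 null CTL was at -0.0089 after quantile normalization and between -0.022 and 0.037 without 1 array. Tcof1 there was at -0.022 with that average and between -0.038 and 0.063 without 1 array. Max lay between -0.11 and 0.045 in PDK1 null CTL and between -0.031 and 0.11 with AktI without 1 array, and Noc3l with AktI, at -0.10, was at 0.019 with that average. The Mycn difference was 0.44 with that average. The average takes in a Mycn probe set with no effect and another with a smaller difference of 0.49. The other causes were not tested. The genes were all above background, and 3 arrays a group limit what can be called.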
